A study of Homo sapiens with 15 samples.

Results

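The genes described here are 9 enzymes that make serine from glucose and pass its carbon to folate: PHGDH, PSAT1, PSPH, SHMT1, SHMT2, MTHFD1, MTHFD2, MTHFD1L and ALDH1L2. They were found by symbol, and all 9 were among the 18322 genes of the deposited table. The 15 RNA-seq libraries, in 5 groups of 3, come from A375, a line of human melanoma cells with an activating BRAF mutation. PLX4720 is an inhibitor of mutant BRAF, and the series title places MYC, a transcription factor that drives growth genes, at the centre of resistance to such treatment. By the labels, all groups share the A375 background and normal culture conditions.

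The groups were resistant cells labelled with a first hairpin against MYC (shMYC1), with a second one (shMYC2) or with none (Resistant). The others were parental cells carrying MYC T58A, a form of MYC that is degraded more slowly, and parental cells titled only as such (Parental). The resistant cells are a single clonal population, so the p-values measure the spread between libraries and not between independent resistant populations. The spread of a gene was estimated once over all 5 groups, so it takes in groups where the gene has few reads. The sources used here do not give drug exposure at harvest, the vectors or the number of clones of the MYC T58A and hairpin lines.

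Serine is made from the glycolytic intermediate 3-phosphoglycerate by PHGDH, PSAT1 and PSPH in turn. Serine hydroxymethyltransferases (SHMT1 in the cytosol, SHMT2 in mitochondria) then split serine into glycine and a carbon unit that is carried by folate. In mitochondria MTHFD2 oxidises that unit and MTHFD1L releases it as formate, which leaves for the cytosol. ALDH1L2 instead oxidises the unit to carbon dioxide while making NADPH. MTHFD1 works in the cytosol, where the carbon units feed purine and thymidylate synthesis. ATF4, a stress-response factor, and MYC are both known activators of genes in this pathway.

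Promoter sequences of RefSeq (build GRCh38.p14) were matched for 6 of the 9 genes: PHGDH, PSAT1, SHMT1, MTHFD1, MTHFD2 and MTHFD1L. The 250 bases before each start were searched on both strands for TGATGNAA, the core of the response element bound by C/EBP and ATF4 dimers, and for CACGTG, the E-box bound by MYC with MAX. PHGDH and PSAT1, the members with the largest falls among those matched, are printed with MTHFD1 and MTHFD1L, the members with a match. Each is written 5′ to 3′ on the gene's strand, the motif letters in capitals, and neither motif overlaps the other.
PHGDH (chr1:119711684-119711933, + strand): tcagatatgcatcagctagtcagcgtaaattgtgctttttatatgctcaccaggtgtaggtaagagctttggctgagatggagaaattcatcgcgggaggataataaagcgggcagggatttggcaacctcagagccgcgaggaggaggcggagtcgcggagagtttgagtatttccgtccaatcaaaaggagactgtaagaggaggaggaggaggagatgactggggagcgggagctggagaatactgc
PSAT1 (chr9:78296875-78297124, + strand): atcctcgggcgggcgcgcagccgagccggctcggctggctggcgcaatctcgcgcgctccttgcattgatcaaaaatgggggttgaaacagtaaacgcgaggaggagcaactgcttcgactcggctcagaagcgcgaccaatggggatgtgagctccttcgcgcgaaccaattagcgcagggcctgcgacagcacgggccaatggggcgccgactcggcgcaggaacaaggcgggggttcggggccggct
MTHFD1 (chr14:64388103-64388352, + strand): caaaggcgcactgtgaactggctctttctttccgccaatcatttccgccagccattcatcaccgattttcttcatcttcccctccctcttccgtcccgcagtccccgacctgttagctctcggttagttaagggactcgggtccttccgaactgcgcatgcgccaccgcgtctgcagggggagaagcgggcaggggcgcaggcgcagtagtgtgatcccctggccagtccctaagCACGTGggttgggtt
MTHFD1L (chr6:150866236-150866485, + strand): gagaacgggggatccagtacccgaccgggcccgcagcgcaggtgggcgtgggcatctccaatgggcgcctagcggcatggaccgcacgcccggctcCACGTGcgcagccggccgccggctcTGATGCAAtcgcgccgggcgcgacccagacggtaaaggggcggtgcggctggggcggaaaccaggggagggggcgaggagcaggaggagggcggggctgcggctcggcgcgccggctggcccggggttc
The E-box letters began at position -15 in MTHFD1 and at -154 in MTHFD1L, counted from the start, and the TGATGNAA letters began at -129 in MTHFD1L. Neither motif was found in these windows of PHGDH, PSAT1, SHMT1 or MTHFD2. Over 27305 promoters of the same length, 3.19% held TGATGNAA, 6.49% held CACGTG and 0.125% held both. A match describes letters only and shows no binding.

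Values are normalised read counts (reads divided by the size factor of the library), given per library or as mean ± SD of 3 libraries. Statements that groups do or do not overlap describe these values only, and the share of all genes without overlap is not reported here. Between 24222192 and 30399644 reads fell in genes in each library. MYC checks the labels and went against both hairpins: it had 7760.4, 8100 and 7589.5 normalised reads in the libraries labelled shMYC2 and 459, 518 and 481 in those labelled shMYC1, against 330, 274 and 304 in Resistant. It was 25.8-fold higher in the first set (limma adjusted p = 1.7385e-20) and 1.61-fold higher in the second (adjusted p = 4.4291e-08). In parental cells with MYC T58A it had 3612, 3425 and 3496 normalised reads, against 436, 419 and 413 in Parental. The Resistant libraries had 1.40-fold less MYC than Parental (adjusted p = 4.3169e-06). ATF4 averaged 6391 ± 93.4 normalised reads in shMYC2, 3502 ± 327 in shMYC1, 5502 ± 80.5 in Resistant, 3022 ± 58.8 in MYC T58A and 4374 ± 33.5 in Parental (SD, n = 3 each).

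The labels call the cells melanocytes, and 6 of 8 melanocyte markers were in the table, which does not list MLANA and TYR. Their summed level was 191 to 244 normalised reads in the shMYC2 libraries, 13098 to 15464 in shMYC1, 3549 to 3988 in Resistant, 3579 to 3974 in MYC T58A and 6801 to 7102 in Parental. SOX10, a lineage factor, averaged 19.5 normalised reads in shMYC2, 11890 in shMYC1, 7.50 in Resistant, 9.14 in MYC T58A and 5282 in Parental. MITF, the regulator of pigment genes, did not follow SOX10: it averaged 173 normalised reads in shMYC2, 1620 in shMYC1, 3748 in Resistant, 3592 in MYC T58A and 1509 in Parental, and so makes up most of the sums of Resistant and MYC T58A. DCT, a pigment enzyme, averaged 78.6 in MYC T58A and at most 3.82 in the other groups, with no read in shMYC2. TYRP1 was also highest in MYC T58A (60.3 on average, against 3.81 in Parental). PMEL and S100B went the other way, at 2.97 and 1.63 in MYC T58A, against 22.4 and 104 in Parental, and S100B averaged 545 in shMYC1. The 3 fibroblast markers summed to 178 to 202 normalised reads in shMYC2, 374 to 383 in shMYC1, 3644 to 3802 in Resistant, 458 to 508 in MYC T58A and 472 to 517 in Parental, most of it LUM in Resistant (3051 on average). Of the keratinocyte markers 2 of 3 were measured, summing to at most 489 normalised reads (in shMYC1). Most of that sum was KRT14 (441 on average), with KRT5 at 7.12 in shMYC1 and at 0 in shMYC2. Of the endothelial markers CDH5 was measured, at most 20.9 (in Resistant), and the immune markers PTPRC and CD3E were not in the table. The shMYC2 libraries stood apart from all others, with 79.2% of genes called different from Resistant and 1636 to 1694 genes of the table without a read, against 296 to 665 in the other libraries. The labels alone give these cells as A375 with a hairpin, which was not tested here, and each shMYC2 fold below is a difference between libraries so labelled. The part of these shifts in the results below was not tested.

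**Figure D1:**
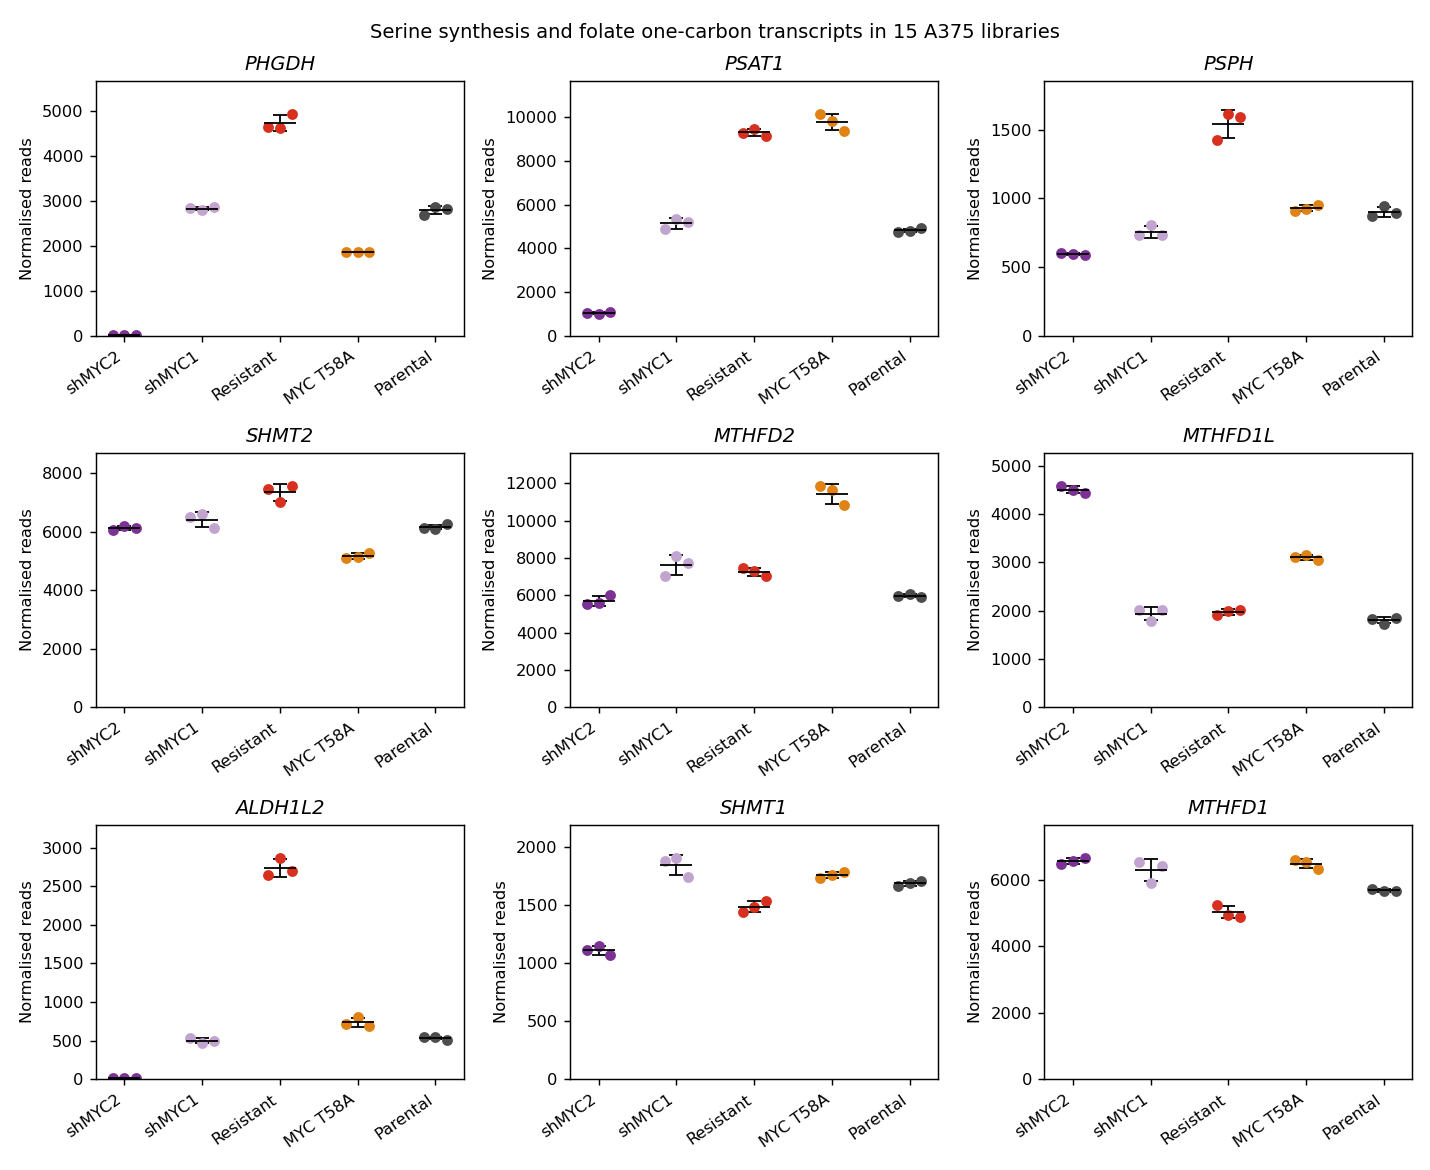
Normalised reads (y axis, linear from 0, a panel per gene) of the 9 enzymes in each library, with a point per library and bars for mean ± SD of 3. PHGDH and ALDH1L2 lie near 0 in the libraries labelled shMYC2 (means 10.1 and 17.5), ALDH1L2 is highest in Resistant (2734) and MTHFD2 is highest with MYC T58A (11454).

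Resistant against Parental asks what differs in the cells that resist the inhibitor. All 3 serine synthesis enzymes rose together, by 1.69-fold to 1.93-fold, and ALDH1L2 rose 5.14-fold. The other mitochondrial enzymes rose by up to 1.21-fold, and both cytosolic folate enzymes, SHMT1 and MTHFD1, fell. In all, 7 of the 9 enzymes were higher and 2 lower, in a comparison where 51.6% of 17012 tested genes were called (27.2% higher and 24.4% lower). The median log2 difference of the 9 was 0.28, against 0.01 over all tested genes.

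PHGDH, which commits 3-phosphoglycerate to serine, had 4640.3, 4612 and 4925 normalised reads in Resistant, against 2683, 2872 and 2821.5 in Parental. All 3 Resistant libraries lay above all 3 Parental ones, a log2 difference of 0.76 (SE 0.16, adjusted p = 0.0015937). PSAT1, the transaminase of the second step, had 9290.1, 9487 and 9162 in Resistant, against 4766, 4797 and 4917 in Parental. The groups were far apart for PSAT1, at 1.93-fold (log2 0.95, SE 0.05, adjusted p = 1.0881e-11). PSPH, the phosphatase of the last step, had 1428, 1614 and 1595 in Resistant, against 869, 942 and 893 in Parental, 1.71-fold higher without overlap (adjusted p = 4.1133e-09). In bulk RNA, fewer cells that express a gene and less of its RNA per cell cannot be told apart.

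ALDH1L2, the mitochondrial formyl-folate dehydrogenase, had 2642, 2867 and 2691 normalised reads in Resistant, against 542, 542 and 511 in Parental. Its log2 difference of 2.36 (SE 0.11, adjusted p = 1.1337e-11) was exceeded by 357 of the 17012 tested genes, and it was the only one of the 9 higher by at least 1 on the log2 scale, as 8.07% of genes were. MTHFD2, the mitochondrial dehydrogenase and cyclohydrolase, had 7447, 7311 and 7035 in Resistant, against 5959, 6086 and 5922 in Parental, 1.21-fold higher. SHMT2 had 7464, 7017 and 7566 in Resistant, against 6133, 6111 and 6256.5 in Parental, 1.19-fold higher. Neither gene's groups overlapped, with adjusted p = 0.00023007 for MTHFD2 and 5.7656e-05 for SHMT2. MTHFD1L, the mitochondrial formate-releasing synthetase, had 1911, 2000.5 and 2017 in Resistant, against 1822, 1733 and 1847 in Parental. That 1.10-fold rise (adjusted p = 0.031696) is the weakest of the 9: it was lost with edgeR (adjusted p = 0.06816), without Parental library 1 or 2 (0.05437 and 0.1343) and without Resistant library 2 or 3 (0.08614 and 0.09423).

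The cytosolic folate enzymes, SHMT1 and MTHFD1, went the other way. SHMT1 had 1439, 1481 and 1536 normalised reads in Resistant, against 1661, 1693 and 1706 in Parental, a log2 difference of -0.18 (SE 0.05, adjusted p = 0.0032339). MTHFD1, the cytosolic enzyme with 3 folate activities, had 5239, 4957 and 4896 in Resistant, against 5723, 5676 and 5659 in Parental, also -0.18 on the log2 scale (SE 0.04, adjusted p = 0.0023354). Every Resistant library lay below every Parental library for both genes. The ratio of SHMT2 to SHMT1 reads was therefore 4.95 ± 0.226 in Resistant and 3.66 ± 0.0421 in Parental (SD, n = 3 each), and that of MTHFD2 to MTHFD1 reads was 1.44 ± 0.0275 in Resistant and 1.05 ± 0.0166 in Parental.

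**Figure D2:**
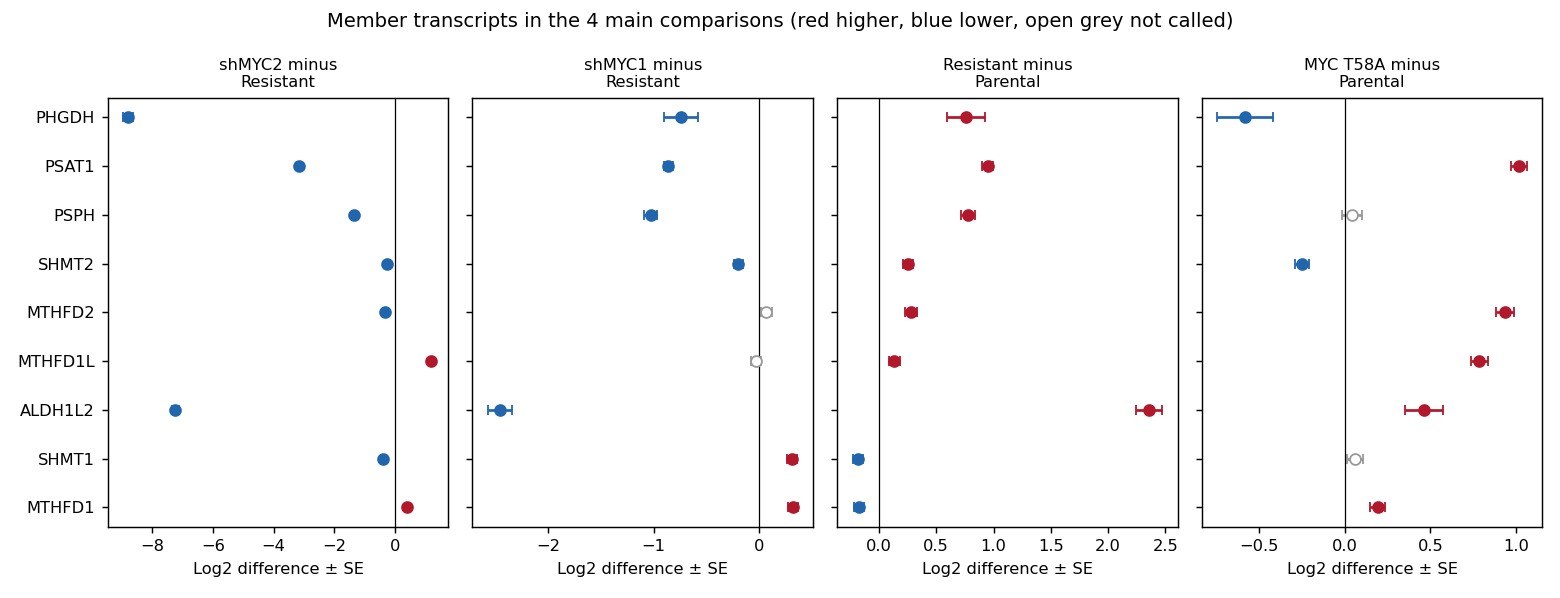
Log2 difference ± SE (x axis, scaled separately in each panel) of the 9 enzymes in the 4 main comparisons, the first group minus the second, with filled points for adjusted p under 0.05 and open grey points for the rest. In Resistant minus Parental 7 points lie right of 0 and the cytosolic SHMT1 and MTHFD1 lie left of it, and in shMYC2 minus Resistant PHGDH reaches -8.78.

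MYC T58A against Parental sets parental cells carrying MYC T58A beside parental cells whose titles name no construct. MYC RNA was 8.30-fold higher in the first, and SOX10 averaged 9.14 normalised reads there, against 5282 in Parental. The level of MYC, its stability, the vector and the state of the cells cannot be told apart in this comparison. PSAT1 rose 2.03-fold, MTHFD2 1.91-fold and MTHFD1L 1.72-fold, while PHGDH, the first enzyme of the same route as PSAT1, fell. ALDH1L2 and MTHFD1 rose less, SHMT2 fell, and PSPH and SHMT1 did not pass the test. The counts were 5 higher and 2 lower of 9, where 63.8% of all tested genes were called (30.1% higher and 33.7% lower). The median of the 9 was 0.19 on the log2 scale, against -0.02 over all genes.

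PSAT1 had 10145, 9824 and 9383 normalised reads with MYC T58A, all above the highest Parental library (4917), at a log2 difference of 1.02 (SE 0.05, adjusted p = 2.0571e-12). PHGDH had 1862, 1861 and 1867 with MYC T58A, all below the lowest Parental library (2683), at -0.58 (SE 0.16, adjusted p = 0.007135). The ratio of PSAT1 to PHGDH reads was 5.25 ± 0.212 with MYC T58A and 1.73 ± 0.0541 in Parental (SD, n = 3 each). PSPH had 911, 923 and 953 with MYC T58A, which overlapped Parental, a log2 difference of 0.04 (SE 0.06, adjusted p = 0.53392).

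MTHFD2 had 11864, 11651 and 10847 normalised reads with MYC T58A, against at most 6086 in Parental (log2 0.93, SE 0.05, adjusted p = 4.5691e-11), its highest level in any group. MTHFD1L had 3104, 3157 and 3047 with MYC T58A, against at most 1847 in Parental (log2 0.78, SE 0.05, adjusted p = 2.3695e-10). ALDH1L2 had 714, 802 and 687 with MYC T58A and rose 1.38-fold (adjusted p = 0.0016524). SHMT2 fell to 5109, 5146 and 5285 with MYC T58A, against at least 6111 in Parental (log2 -0.25, SE 0.04, adjusted p = 3.9586e-05). MTHFD1 had 6613, 6530.3 and 6339 with MYC T58A and rose 1.14-fold (adjusted p = 0.00091872), the opposite sign to Resistant. SHMT1 had 1729, 1758.5 and 1787 with MYC T58A, just above Parental (log2 0.06, SE 0.05, adjusted p = 0.28344).

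Resistant and MYC T58A were also compared directly, since their comparisons with Parental share the Parental libraries. Of the 9 enzymes 4 were higher and 4 lower in Resistant, where 67.8% of genes were called (36% higher and 31.8% lower). Higher in Resistant were ALDH1L2 (3.72-fold, adjusted p = 7.1117e-11), PHGDH (2.54-fold, 7.0012e-06), PSPH (1.66-fold, 3.6694e-09) and SHMT2 (1.42-fold, 5.5889e-09). Lower in Resistant were MTHFD2 (1.58-fold, 3.7815e-09), MTHFD1L (1.57-fold, 2.0625e-09), MTHFD1 (1.29-fold, 6.3662e-07) and SHMT1 (1.18-fold, 0.00018459). PSAT1 did not pass the test, with a log2 difference of -0.07 (SE 0.05, adjusted p = 0.1818).

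The libraries labelled shMYC1 were set against Resistant, although MYC itself was higher in them. An effect of the hairpin and other differences between the cells so labelled cannot be told apart here. The serine synthesis enzymes and ALDH1L2 fell: PSPH 2.04-fold, PSAT1 1.81-fold, PHGDH 1.67-fold and ALDH1L2 5.49-fold. SHMT2 fell slightly, the cytosolic SHMT1 and MTHFD1 rose, and MTHFD2 and MTHFD1L did not pass the test. That makes 2 higher and 5 lower of 9, where 57.1% of genes were called (27% higher and 30.1% lower). The median of the 9 was -0.20 on the log2 scale, against -0.03 over all genes. SOX10 was high in shMYC1 and near 0 in Resistant, as given above.

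ALDH1L2 had 531, 465 and 497 normalised reads in shMYC1, against at least 2642 in Resistant (log2 -2.46, SE 0.11, adjusted p = 3.7954e-12). PSPH had 731, 807 and 733 in shMYC1, against at least 1428 in Resistant (log2 -1.03, SE 0.06, adjusted p = 6.1286e-11). Both sets of 3 were widely separated. PSAT1 had 4869.7, 5351 and 5190.5 in shMYC1, against at least 9162 in Resistant (adjusted p = 2.3682e-11). PHGDH had 2836, 2784 and 2861 in shMYC1, against at least 4612 in Resistant (adjusted p = 0.0016438). No shMYC1 library reached the lowest Resistant library for either gene.

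SHMT2 had 6502, 6613 and 6123 normalised reads in shMYC1 (log2 -0.20 against Resistant, adjusted p = 0.00055571). SHMT1 had 1877, 1907 and 1745.5 in shMYC1 (log2 0.31, adjusted p = 1.9565e-05), and MTHFD1 had 6529, 5911 and 6434 (log2 0.32, adjusted p = 5.1592e-06). MTHFD2 had 7064, 8095 and 7729 in shMYC1, overlapping the Resistant values (log2 0.07, SE 0.05, adjusted p = 0.27946), and passed the test only without shMYC1 library 1 (log2 0.12, adjusted p = 0.04758). MTHFD1L had 2015, 1784.5 and 2019.8 in shMYC1, spanning the Resistant values (log2 -0.03, SE 0.05, adjusted p = 0.64479).

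Set against Parental instead, the shMYC1 libraries had 3 of the 9 enzymes higher, 1 lower and 5 not called, where 39.6% of genes were called (19.7% higher and 19.9% lower). MTHFD2 was 1.27-fold higher in shMYC1 (adjusted p = 4.5983e-05), SHMT1 1.09-fold (0.041306) and MTHFD1 1.11-fold (0.013715), and PSPH was 1.19-fold lower (0.002253). PHGDH differed by 0.02 on the log2 scale (SE 0.16, adjusted p = 0.94728), PSAT1 by 0.09 (SE 0.05, 0.13709) and ALDH1L2 by -0.10 (SE 0.11, 0.53789), and their groups overlapped. SHMT2 (log2 0.06, SE 0.04, 0.318) and MTHFD1L (log2 0.11, SE 0.05, 0.10605) also overlapped Parental, and MTHFD1L passed without shMYC1 library 2 (0.004985), as PSAT1 did without shMYC1 library 1 (0.03899). The SHMT1 and MTHFD1 calls were lost under both other scalings, with the 6 libraries alone and without some single libraries: SHMT1 without any 1 Parental library (adjusted p 0.07263 to 0.1196) or shMYC1 library 1 or 2 (0.09776 and 0.1106), MTHFD1 without shMYC1 library 1 or 3 (0.0538 and 0.05255).

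The libraries labelled shMYC2 against Resistant were the most divergent pair of the 4 main comparisons. PHGDH and ALDH1L2 were almost absent in shMYC2, PSAT1 fell 9.02-fold and PSPH 2.60-fold. SHMT1, SHMT2 and MTHFD2 fell by 1.20-fold to 1.34-fold, whereas MTHFD1L rose 2.28-fold and MTHFD1 1.31-fold. Of the 9, 7 were lower and 2 higher, where 79.2% of all genes were called (36.2% higher and 43% lower). A fall of at least 1 on the log2 scale was seen for 4 of the 9 and for 25.5% of all tested genes. The median of the 9 was -0.42, against -0.08 over all genes.

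PHGDH had 11.8, 6.26 and 12.3 normalised reads in shMYC2 (11, 6 and 12 reads), against at least 4612 in Resistant. The fall was 467-fold (log2 -8.78, SE 0.16, adjusted p = 5.9552e-15), and 53 of 17012 genes had a lower log2 difference. ALDH1L2 had 20.5, 18.8 and 13.3 in shMYC2 (19, 18 and 13 reads), against at least 2642 in Resistant, a 156-fold fall (log2 -7.23, SE 0.11, adjusted p = 1.5824e-19). PSAT1 had 1043, 989 and 1064 in shMYC2, the lowest of any group, against at least 9162 in Resistant (log2 -3.17, SE 0.05, adjusted p = 4.1819e-20). PSPH had 605, 591 and 589 in shMYC2, against at least 1428 in Resistant (log2 -1.37, SE 0.06, adjusted p = 1.8753e-13).

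MTHFD1L had 4577, 4504 and 4434 normalised reads in shMYC2, all above every library of the other groups, against at most 2017 in Resistant (log2 1.19, SE 0.05, adjusted p = 1.4988e-13). MTHFD1 had 6478, 6569 and 6667 in shMYC2, against at most 5239 in Resistant (log2 0.39, adjusted p = 2.0345e-07). SHMT1 fell to 1115, 1146 and 1070 in shMYC2, its lowest level in the series (log2 -0.42, adjusted p = 2.0116e-07). SHMT2 had 6078, 6204 and 6144 in shMYC2 (log2 -0.26, adjusted p = 1.7129e-05), and MTHFD2 had 5528.5, 5569 and 6030.5 (log2 -0.35, adjusted p = 8.0793e-06). Over all genes the median difference was -0.08 as deposited, 0.15 after quantile normalization and -0.22 after scaling to total reads, and the called genes split into 6155 higher and 7319 lower, 7863 and 6167, and 5234 and 8259 under the same 3 scalings. The direction of all 9 enzymes in this comparison held under each of them.

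The near absence of PHGDH and ALDH1L2 set the shMYC2 libraries apart from every group. PHGDH was 276-fold lower than in Parental, 279-fold lower than in shMYC1 and 184-fold lower than with MYC T58A. ALDH1L2 was 30.4-fold lower than in Parental, 28.4-fold lower than in shMYC1 and 41.9-fold lower than with MYC T58A. Both MYC-rich groups, shMYC2 and MYC T58A, had more MTHFD1L than Resistant, shMYC1 or Parental, yet against MYC T58A the shMYC2 libraries had 2 of the 9 higher, 6 lower and 1 not called, where 79.3% of genes were called (36.8% higher and 42.5% lower). PSAT1 was 9.48-fold lower in shMYC2 than with MYC T58A (adjusted p = 3.2225e-20), MTHFD2 was 2.01-fold lower (3.6882e-12) and MTHFD1L was 1.45-fold higher (1.3849e-08). SHMT2, 1.19-fold higher (3.0257e-05), lost its call after total-count scaling (0.1127), and MTHFD1, the gene not called (log2 0.02, SE 0.04, 0.72953), fell past the threshold under both other scalings (log2 -0.13 and -0.16).

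**Figure D3:**
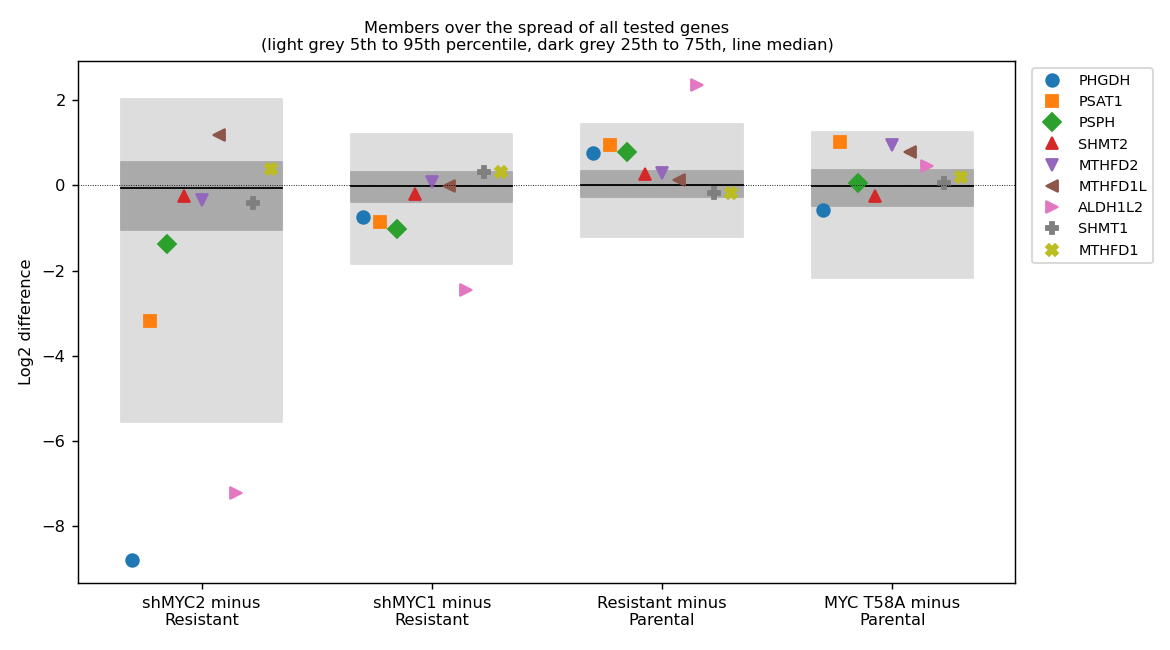
Log2 difference (y axis) of the 9 enzymes over the spread of all 17012 tested genes in the 4 main comparisons, with the 5th to 95th percentile in light grey, the 25th to 75th in dark grey and the median as a line. ALDH1L2 lies outside the light band in 3 of the 4 comparisons (-7.23, -2.46 and 2.36), PHGDH in shMYC2 minus Resistant only (-8.78), and the other points stay inside it.

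Ranked over the 5 groups, PHGDH was highest in Resistant, followed by shMYC1 and Parental, which did not differ (adjusted p = 0.9473), then MYC T58A and shMYC2. For PSAT1 the MYC T58A and Resistant groups led and did not differ from each other (adjusted p = 0.1818), nor did shMYC1 and Parental behind them (0.1371), and shMYC2 was last. PSPH ran from Resistant to MYC T58A and Parental, which did not differ (0.5339), then shMYC1 and shMYC2. ALDH1L2 ran from Resistant to MYC T58A, then Parental and shMYC1, which did not differ (0.5379), and shMYC2. In MTHFD2, MYC T58A stood alone at the top, and neither shMYC1 and Resistant (0.2795) nor Parental and shMYC2 (0.2296) differed. For MTHFD1L, shMYC2 and MYC T58A led, and the neighbours Resistant, shMYC1 and Parental did not differ in turn (0.6448 and 0.1061). Compared directly, Resistant and Parental were called different in MTHFD1L (limma adjusted p = 0.031696). SHMT2 was highest in Resistant and lowest with MYC T58A, and shMYC1, Parental and shMYC2 between them did not differ in turn (0.318 and 0.9022). In SHMT1 the upper 3 groups, shMYC1, MYC T58A and Parental, did not differ in turn (0.2251 and 0.2834). Compared directly, shMYC1 and Parental were called different in SHMT1 (limma adjusted p = 0.041306). In MTHFD1 the upper 3 groups, shMYC2, MYC T58A and shMYC1, did not differ in turn (0.7295 and 0.3623). Groups that did not differ are neighbours in rank that were not called different.

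Levels between genes were compared as normalised reads per kilobase of the longest principal transcript in GENCODE v29. Per kilobase, PSAT1 was the most abundant of the 9 in Resistant (4257 ± 74.9) and with MYC T58A (4472 ± 175), whereas SHMT2 led in shMYC2 (2421 ± 24.9), shMYC1 (2528 ± 101) and Parental (2431 ± 30.9; SD, n = 3 each). ALDH1L2 was the least abundant in every group, at 2.32 ± 0.496 per kilobase in shMYC2, 65.9 ± 4.37 in shMYC1, 362 ± 15.7 in Resistant, 97.3 ± 7.97 with MYC T58A and 70.5 ± 2.34 in Parental. PHGDH fell to 3.92 ± 1.30 per kilobase in shMYC2, against 1828 ± 67.0 in Resistant. MTHFD1L ranked 4 of 9 in shMYC2 at 1250 ± 19.9 per kilobase and 8 of 9 in Resistant at 548 ± 15.8. MTHFD2L, a related dehydrogenase outside the 9, stood below MTHFD2 per kilobase in every group, at 134 ± 2.59 against 1281 ± 62.6 in shMYC2 and 277 ± 10.5 against 2570 ± 120 with MYC T58A.

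Some reads could belong to neighbours or copies. By GENCODE v29, SHMT1 overlaps SMCR8, SHMT2 overlaps NDUFA4L2, MTHFD1 overlaps ZBTB25 and ALDH1L2 overlaps C12orf45 on the opposite strand, and the strand counted is not given in the sources used here. C12orf45 rose 1.37-fold in shMYC2 against Resistant while ALDH1L2 fell. The pseudogenes MTHFD1P1, MTHFD2P1 and PSAT1P3 were low in every group, the highest mean being 11.8 normalised reads for MTHFD2P1 in Resistant, and MTHFD2P1 had no read in shMYC2.

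Neighbouring genes were set beside each member, using 25 tested genes on each side in the gene order of RefSeq, in which 86.7% of tested genes were placed. On chromosome 1, PHGDH differed by -8.78 between shMYC2 and Resistant, while its 50 neighbours had a median of -0.26, with ZNF697 just before it at -0.29 and NOTCH2 just after it at -0.19. A single one of the 50, PTGFRN at -9.01, was lower than PHGDH. On chromosome 12, ALDH1L2 differed by -7.23, its neighbours had a median of 0.10, and no neighbour was lower, with C12orf45 at 0.45 and KIAA1033 at -0.18 beside it. With MYC T58A against Parental, PHGDH at -0.58 lay close to the median of its neighbours (-0.63), with ZNF697 at -0.70 and NOTCH2 at -0.85. SHMT2, also on chromosome 12, differed by -0.25 in that comparison and its own 50 neighbours by a median of -0.65. MTHFD2 on chromosome 2 was higher in Resistant than in Parental by 0.28 while its neighbours had a median of -0.37.

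**Figure D4:**
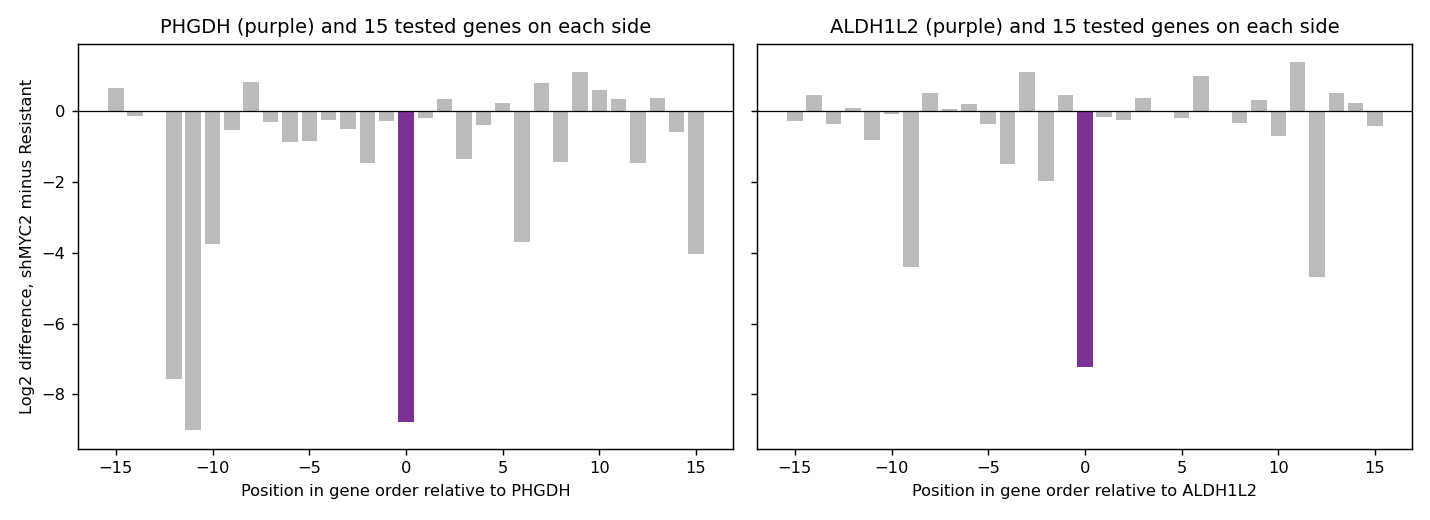
Log2 difference of shMYC2 minus Resistant (y axis) for PHGDH and ALDH1L2 in purple and the 15 tested genes on each side in grey, by position in gene order (x axis). ALDH1L2 at -7.23 is lower than all genes shown around it, and PHGDH at -8.78 is lower than all but PTGFRN at -9.01.

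The genes whose pattern was most like a member's were found by the root-mean-square difference of log2(value + 1) over the 15 libraries, each gene centred on its own mean, for the 3 members with the widest range of group means. For PHGDH they were PODXL2 (0.26), AIF1L (0.27) and HAPLN1 (0.27), all nearly absent in shMYC2, with means of 2.11, 3.85 and 2.79 normalised reads, against 854, 1321 and 1737 in Resistant. For PSAT1 they were NLRC5 (0.18), NINJ1 (0.22) and ANKRD30A (0.22). For ALDH1L2 they were ZNF665 (0.30), RP11-75C9.1 (0.36) and EDIL3 (0.40), each highest in Resistant, with means of 151, 246 and 863 normalised reads there. The closest pair among the members was SHMT2 and MTHFD1 (0.29), and PHGDH lay nearest to ALDH1L2 (1.22).

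Beside the 9 enzymes, 43 other genes of serine, glycine, folate and methionine metabolism were listed, of which 33 were tested. In Resistant against Parental 11 were higher and 13 lower, where 27.2% of all tested genes were higher and 24.4% lower. The median of the 33 was 0.01 on the log2 scale, against 0.01 over all genes. SLC46A1, a folate transporter named after its values were seen, averaged 944 normalised reads in Resistant and 546 in Parental, without overlap. It was not called (SE 0.38, limma adjusted p = 0.10505), and its SE takes in the shMYC2 libraries, where it had few reads. The largest rises were in FOLR1, a folate receptor, with 96.0, 92.1 and 98.3 normalised reads in Resistant, against 4.15, 6.15 and 6.26 in Parental, and in the sparse FOLR3 and SARDH. FOLR3, a secreted folate binder, was 20.6-fold higher from 109 reads in Resistant against 5 in Parental (95% Poisson interval 8.58 to 64.8), and SARDH, sarcosine dehydrogenase, 12.6-fold from 81 against 6 reads (5.54 to 35.3). These intervals cover counting error only. Among the falls were those of GLDC, the glycine decarboxylase (25.4 ± 4.10 in Resistant, 142 ± 18.1 in Parental), and MTRR, which reactivates methionine synthase (1.61-fold lower).

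With MYC T58A against Parental 17 of the 33 were higher and 5 lower, where 30.1% of all genes were higher and 33.7% lower. The median of the 33 was 0.36, against -0.02 over all genes. GLDC rose 2.34-fold (332 ± 6.01 with MYC T58A, 142 ± 18.1 in Parental), GCSH, which carries glycine through the same cleavage system, 5.22-fold, and CBS, which starts transsulfuration, 2.31-fold. GCSH had 154, 125 and 165 normalised reads with MYC T58A, against 35.3, 23.6 and 26.1 in Parental. SLC1A4, a transporter of serine and other neutral amino acids, fell 8.34-fold to 70.1, 87.2 and 74.0, against 590, 684 and 656 in Parental. FOLR3 was called lower too, with no read against 5 in Parental, both too few for a fold.

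Against Resistant, the shMYC1 libraries had 13 of the 33 higher and 7 lower, where 27% of all genes were higher and 30.1% lower. The median of the 33 was 0.08, against -0.03 over all genes. GLDC rose 9.97-fold, with 244, 266 and 249 normalised reads in shMYC1, against 29.9, 24.4 and 21.8 in Resistant. MAT2A, which makes S-adenosylmethionine, rose 1.89-fold and MTRR 1.71-fold. FOLR1 fell 5.44-fold, with 18.1, 21.2 and 13.4 in shMYC1, against 96.0, 92.1 and 98.3 in Resistant. FOLR3 and SARDH had 1 read each in shMYC1, against 109 and 81 in Resistant, ratios of 121 (interval 21.3 to 4836) and 81.7 (14.3 to 3264).

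The shMYC2 libraries had 11 of the 33 higher and 18 lower than Resistant, where 36.2% of all genes were higher and 43% lower. The median of the 33 was -0.31, against -0.08 over all genes. SFXN1, the mitochondrial serine importer, fell 262-fold, with 18.3, 13.6 and 9.21 normalised reads in shMYC2, against 3721, 3550 and 3500 in Resistant. SLC46A1, the proton-coupled folate transporter, had 5 reads in all in shMYC2, against 2926 in Resistant, a ratio of 532 (interval 228 to 1641). FOLR1 had no read in shMYC2 and was at least 30.4-fold lower than Resistant, taking 3 reads per library as the floor. In contrast SLC19A1, the reduced folate carrier, rose 4.11-fold (3067 ± 60.1 in shMYC2, 746 ± 38.3 in Resistant), GGH, which trims folate polyglutamates, 2.56-fold, and SARDH 4.40-fold. SLC1A4, named after its values were seen, was 37.1-fold lower in shMYC2 (15.7 ± 0.407) than in Resistant (583 ± 38.7).

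**Figure D5:**
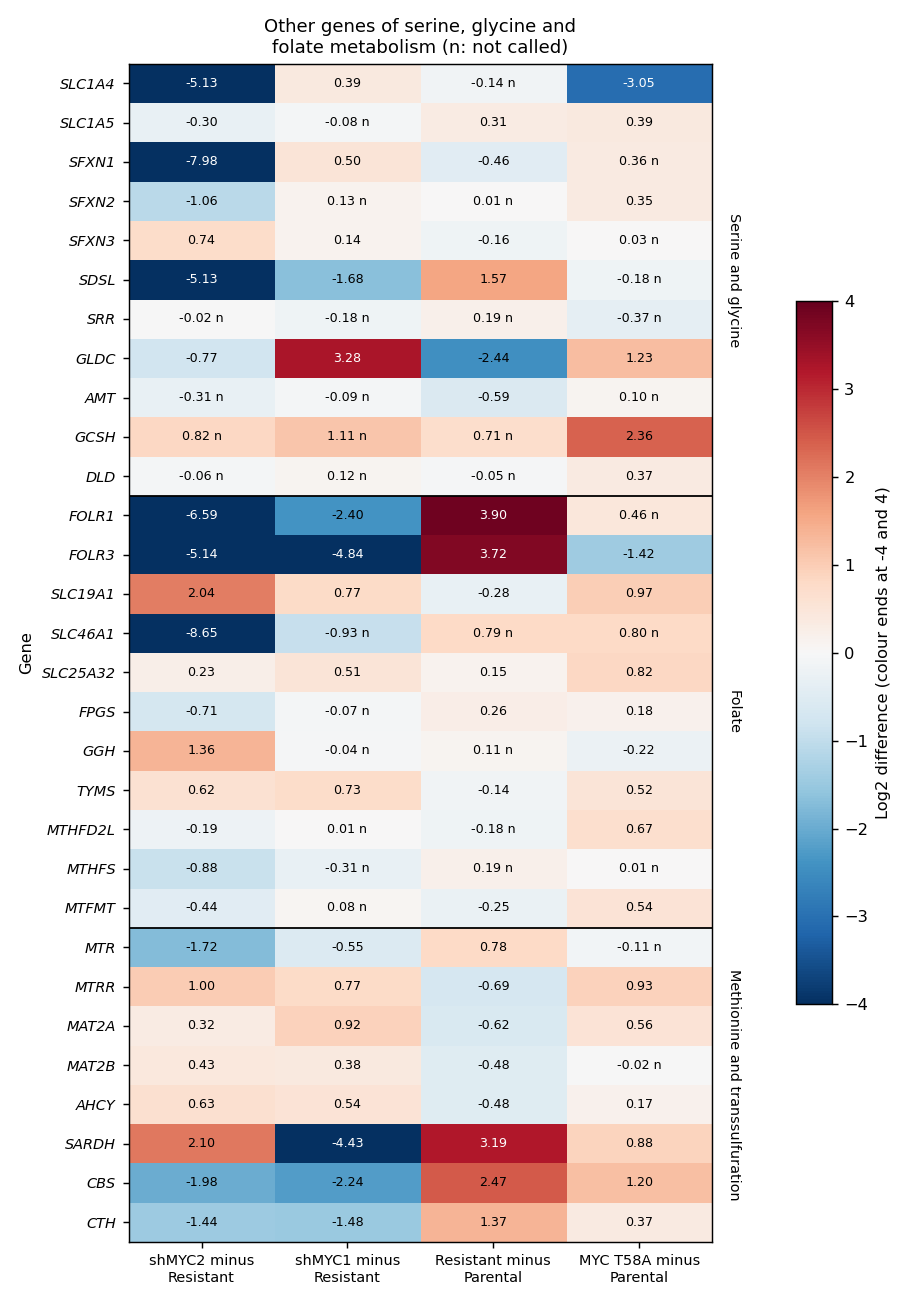
Log2 difference (number and colour, red higher and blue lower in the first group, colour ends at 4 either way) of 30 of the 33 other pathway genes (down the page) in the 4 main comparisons (across), with n for genes not called. In shMYC2 minus Resistant SFXN1 and SLC46A1 reach -7.98 and -8.65, while GLDC is 3.28 in shMYC1 minus Resistant and -2.44 in Resistant minus Parental.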

How the data were processed

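RNA from 15 A375 libraries (5 groups of 3, described as biological triplicates) was sequenced from stranded mRNA libraries, per the labels' protocols. Trim Galore, cutadapt, STAR, HTSeq and DESeq2 are named in the submitters' processing notes, and the sources used here do not give the genome build, annotation or strand counted. As deposited, the signal of a gene in a library is its read count over the library's size factor. The values themselves show this: each column is made of whole multiples of 1 step (0.881 to 1.08), and 100% of values gave whole reads within a tolerance of 0.01. Every gene listed has at least 10 reads in its highest library.

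Values were transformed to log2(value + 1), a scale that understates the change of genes with few reads. A gene was tested if 3 or more libraries had a value of 10 or more (17012, with 1310 left out and all 9 members kept), in R 4.3.3 with limma 3.58.1, its trend and robust options on, and a mean for each of 5 groups fitted to all 15 libraries. Benjamini-Hochberg adjustment was applied within each comparison to every tested gene, with 0.05 as the limit for a call. The plan named a test for counts and this one for normalized values. The test was also run on simulated data. An exact permutation test of 3 against 3 libraries cannot go below p = 0.1 and was not used.

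The members and gene lists were chosen with earlier results of these data known. Named are all 9 members, MYC, ATF4, pseudogenes of members, adjoining and closest genes, and up to 3 called genes each way of the pathway list per main comparison, of which some are not reported here. Column names carry a running number, so libraries are numbered by column order within a group. No batch is given in the labels. Pairs of libraries of a group differed by a chi-square per gene of 1.598 to 26.56, above the 1 that counting noise gives. Libraries made from the same RNA or culture, or repeat runs of a library, cannot be told apart this way. Alternatives were quantile normalization, total-count scaling, no filter or a filter of 50, pseudocounts of 0.1 and 10, limma with the robust option off, edgeR 4.0.16 and DESeq2 1.42.0 on the recovered reads, a fit to only the 6 libraries of a comparison, leaving out 1 library at a time and, chosen after the data were seen, a fit without the shMYC2 libraries.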

Additional observations from a re-analysis of the deposited data

How the results depend on the processing

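Of 1053 log2 differences of members over the alternatives, 1019 kept their direction and their side of the threshold. The members called higher in shMYC1 against Parental (3 of 9) numbered 1 after quantile normalization, total-count scaling or with the 6 libraries alone, and those higher in shMYC2 against MYC T58A (2 of 9) numbered 1 after total-count scaling. The log2 differences that changed sign were all uncalled as first fitted. After quantile normalization and total-count scaling they were -0.0196 and -0.0018 for MTHFD2 in shMYC1 against Resistant, -0.0324 and -0.0431 for PHGDH and -0.0209 and -0.0059 for SHMT2 in shMYC1 against Parental, and -0.1314 and -0.155 for MTHFD1 in shMYC2 against MYC T58A, the last pair past the threshold (limma adjusted p = 0.003925 and 0.001794). Leaving out 1 library at a time gave -0.0594 to 0.0299 for MTHFD1L in shMYC1 against Resistant (above 0 without shMYC1 library 2), -0.0101 to 0.039 for PHGDH in shMYC1 against Parental (below 0 without Parental library 1) and -2e-04 to 0.0303 for MTHFD1 in shMYC2 against MYC T58A (below 0 without MYC T58A library 3). The cause was not tested. Total-count scaling also moved the called genes of shMYC1 against Parental to 2611 higher and 4351 lower, against 3350 and 3380 as deposited. Of the members' calls, the fit without the shMYC2 libraries ended only that of SHMT1 in shMYC1 against Parental (adjusted p = 0.05484). No paired analysis was possible because the columns carry a running number and not the replicate number. PHGDH and ALDH1L2 rest on few reads in shMYC2, which limits the precision of their folds there.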
